A study of Mus musculus with 6 samples.

Results

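Bach2 and Foxp1 are long genes of B cell transcription factors, and the sites of open chromatin along them are described here. The assay was ATAC-seq, which uses the Tn5 transposase to tag accessible DNA, and the cells were immature B cells, sorted as B220+CD93+ from mouse spleen. All mice carried Tcrd-GDL, a reporter allele that makes γδ T cells sensitive to diphtheria toxin through its receptor; the labels give no age. Untreated mice gave 3 libraries. The other 3 came from mice that received diphtheria toxin (DTx) into the peritoneum 2 times, 48 h apart, each time 15 ng for every gram of weight, and whose cells were taken on day 8. All 6 libraries share the allele and the sort. The labels speak of no injection in the untreated mice, so removal of γδ T cells and other effects of the toxin or the injections cannot be told apart. Nothing in the labels says that each library is a separate mouse, and the spread that p-values here measure is that between libraries, which may be technical. The members are all peaks of the 6 deposited lists that lie in either gene or within 50 kb of it, merged into regions wherever they overlapped. This gave 143 of the 70174 regions of the series, 53 at Bach2 and 90 at Foxp1.

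BACH2 is a transcriptional repressor that binds DNA together with small MAF proteins. In B cells it is best known for repressing Prdm1, the gene of the plasma cell factor BLIMP-1, and so for holding B cells short of antibody secretion. FOXP1 is a forkhead factor that is needed early in B cell development, where it acts on the recombinase genes, and it is also present in mature follicular B cells. Genes of this kind commonly carry many regulatory elements in their introns.

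The peaks at both loci were read against the RefSeq genes of GRCm38.p6, which is the build of the peak lists (mm10). Bach2 lies on the forward strand of chromosome 4 from 32238413 to 32586109 (348 kb) and Foxp1 on the reverse strand of chromosome 6 from 98925342 to 99522746 (597 kb). Within 50 kb of Bach2 lie the protein-coding genes Gja10 and Casp8ap2, a pseudogene and a tRNA, and the lncRNA Bach2os lies inside it. Foxp1 has no other annotated gene within 50 kb on either side, but 5 short or noncoding genes lie inside it. The table has no exons, so exons, introns and UTRs were not told apart.

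RefSeq's table lists 1 promoter for Bach2, inside the gene, and 3 for Foxp1. They are shown because they differ in base composition and in whether open chromatin was called over them. The 250 bases before each start site are given 5′ to 3′, with every CG dinucleotide in capitals.
Bach2 promoter 1: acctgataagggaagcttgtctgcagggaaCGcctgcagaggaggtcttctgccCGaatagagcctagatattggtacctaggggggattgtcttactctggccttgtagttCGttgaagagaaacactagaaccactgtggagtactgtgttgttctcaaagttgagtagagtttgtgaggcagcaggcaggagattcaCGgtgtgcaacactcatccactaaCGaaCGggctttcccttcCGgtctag
Foxp1 promoter 1: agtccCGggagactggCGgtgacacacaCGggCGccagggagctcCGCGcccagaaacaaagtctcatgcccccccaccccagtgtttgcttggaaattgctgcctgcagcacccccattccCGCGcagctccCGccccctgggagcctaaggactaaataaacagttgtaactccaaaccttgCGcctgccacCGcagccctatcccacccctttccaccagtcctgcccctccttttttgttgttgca
Foxp1 promoter 2: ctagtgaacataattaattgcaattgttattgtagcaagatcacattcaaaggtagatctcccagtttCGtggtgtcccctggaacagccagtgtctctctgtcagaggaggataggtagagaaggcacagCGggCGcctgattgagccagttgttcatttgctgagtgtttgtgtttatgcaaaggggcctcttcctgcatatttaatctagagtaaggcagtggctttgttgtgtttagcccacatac
Foxp1 promoter 3: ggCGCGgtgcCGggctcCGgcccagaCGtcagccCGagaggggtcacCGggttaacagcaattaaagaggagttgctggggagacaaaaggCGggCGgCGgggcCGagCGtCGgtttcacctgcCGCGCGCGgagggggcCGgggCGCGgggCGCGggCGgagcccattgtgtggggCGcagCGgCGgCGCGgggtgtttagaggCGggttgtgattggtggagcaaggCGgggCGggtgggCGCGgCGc

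Bach2 promoter 1 (chromosome 4, 32417185 to 32417434) lies 179 kb into the gene. It has 7 CG dinucleotides, and no library had a peak over it. The nearest region was 1767 bp away and was called in 2 DTx libraries alone. Open chromatin lay instead at the outer annotated start of the gene, where a region of 2031 bp was called in all 6 libraries. Foxp1 promoter 1 (chromosome 6, 99520994 to 99521243) lies 1.75 kb from the outer end of the gene and has 11 CG dinucleotides. Peaks of 2 libraries reached over its window, at the edge of a region of 2307 bp that all 6 libraries called. Foxp1 promoter 2 (99266516 to 99266765) lies 256 kb into the gene and has only 3 CG dinucleotides, yet peaks of all 6 libraries overlapped its window, 251 bases of which lay in their region. Foxp1 promoter 3 (99028299 to 99028548) lies 494 kb into the gene and has 34 CG dinucleotides. It sat inside the widest region of either locus, 3120 bp from 99025976 to 99029095, and 6 of 6 libraries had a peak there.

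Counted over the 32851 promoters of the table on these chromosomes, 33.95% had a peak in all 6 libraries and 58.3% in none. Among the 5896 promoters with 20 or more CG dinucleotides, 76.0% had one in all 6. Among the 14591 with 4 or fewer, 5.34% did, so that the open Foxp1 promoter 2 is in a minority of its kind. Of the 5843 with 5 to 9, 64.6% had no peak in any library, as was the case for the Bach2 promoter. Of the 6521 with 10 to 19, 67.6% had a peak in all 6 and 22.0% in none. Foxp1 promoter 1, with peaks in 2 libraries, belonged to neither of these. These counts are descriptions of 1 window of 300 bases per start site.

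Searched on both strands, the forkhead motif TGTTTAC was in none of the 4 sequences and in 3.17% of all promoters of the same length. TGCTGAG, of the kind bound by MAF and BACH proteins, was in Foxp1 promoter 2 and in 6.21% of all. The ETS motif CCGGAAG was in Bach2 promoter 1 and in 6.91% of all. CCAAT was in Bach2 promoter 1 and Foxp1 promoter 3 and in 33.8% of all. A match says only that these letters are present.

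Cells and lists bear on what follows. The lists held 36760 to 60811 peaks, and 4 of them have the layout of broad peak calling and 2 (untreated replicate 3 and DTx replicate 1) that of narrow calling. A longer list alone gives more peaks, so the groups were compared in equal-length lists, which hold the 36760 peaks of highest −log10 q of each library. Of 8 B cell markers, 7 or 8 had a peak within 1 kb of a gene end in each library. Of 10 T cell markers it was 4 to 5 in the untreated and 3 to 6 in the DTx libraries, with Cd3e, Cd8a, Trdc and Trac at 0 in all. Of 8 myeloid markers it was 1 to 3 and 2 to 3 (Lyz2 and 4 others at 0), of 6 dendritic cell markers 5 in every library (Itgax at 0), of 6 natural killer markers 1 to 2 in both groups (Ncr1 and 2 others at 0), and of 5 erythroid markers 2 to 3 and 3 (Gata1 and Hba-a1 at 0). Other members of the same lists had a peak in all 6 libraries. These were Cd3d, Cd5 and Cd28 of the T cell markers, Prf1 of the natural killer markers, and Klf1 and Hbb-bt of the erythroid markers. So did every dendritic cell marker but Itgax, and no myeloid marker did. No share over all genes stands beside these counts, so they do not show how pure the sort was. T cells also use Bach2 and Foxp1, and the part of other cells in the results below was not tested. A site that is open in fewer cells and a site that is less open in each cell cannot be told apart in such libraries.

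Both genes were dense in open sites. In the equal-length lists the body of Foxp1 held 48, 47 and 43 peaks in untreated replicates 1, 2 and 3 and 43, 42 and 48 in the DTx replicates, a mean of 45.2 ± 2.79 (SD, n = 6). That was the highest mean of all 21883 protein-coding genes. Bach2 held 17, 19 and 15 against 22, 19 and 20, a mean of 18.7 ± 2.42 (SD, n = 6), which ranked 16 of 21883. Long genes offer more room, so density was compared among the 989 genes of at least 200 kb, whose median was 0.416 peaks per 100 kb. Foxp1 had 7.56 ± 0.47 peaks per 100 kb (SD, n = 6) and ranked 5, and Bach2 had 5.37 ± 0.70 and ranked 20. Against genes of every length, most of which are far shorter, density placed Foxp1 above 82.4% and Bach2 above 74.7% of them.

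**Figure D1:**
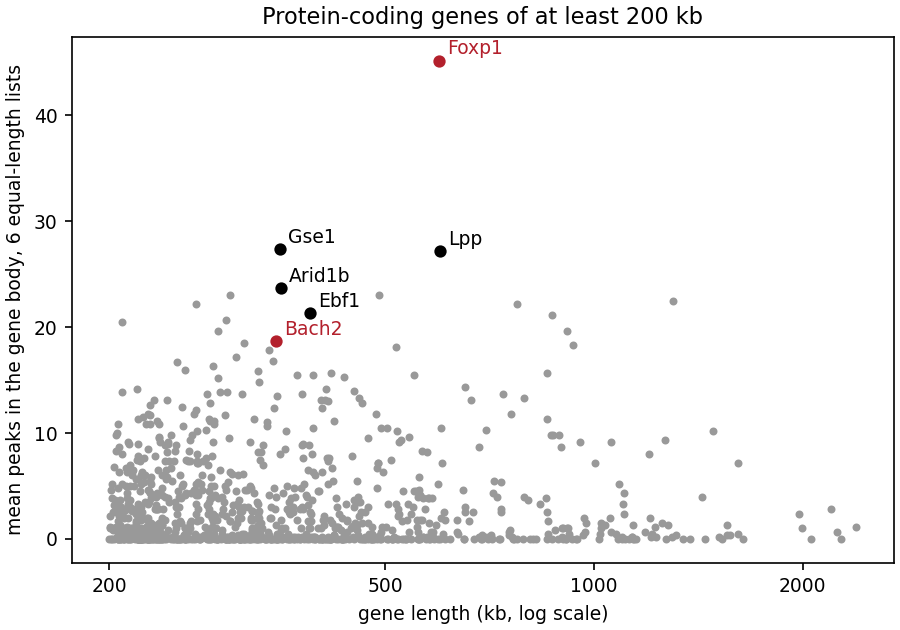
Mean number of peaks in the gene body over the 6 equal-length lists (vertical axis) against gene length in kb (horizontal axis, log scale) for the 989 protein-coding genes of at least 200 kb, 1 point per gene. Foxp1 stands alone at 45.2 peaks, above Gse1 at 27.3 and Lpp at 27.2, and Bach2 lies at 18.7.

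Foxp1 was denser than Bach2 in each library. The difference, Bach2 minus Foxp1, averaged -2.19 ± 0.85 peaks per 100 kb of gene body (SD, n = 6) with Foxp1 higher in 6 of 6 libraries (exact two-sided sign-flip permutation p = 0.0312, the smallest that 6 libraries allow). Foxp1 was also denser than the B cell factor genes Ebf1, at 5.47, and Pax5, at 4.57, in 6 of 6 libraries each. These and the comparisons of Bach2 with Ebf1 (higher in 2 of 6) and Pax5 (higher in 4 of 6) were added after the values were seen. Over these 5 pairs the exact permutation p adjusts to 0.0521 for each of the 3 differences with Foxp1, and is 0.844 for Bach2 against Ebf1 and 0.195 against Pax5. With 50 kb of flank on each side the difference between Bach2 and Foxp1 shrank to -0.94 (exact permutation p = 0.0625), since the flanks of Foxp1 are nearly bare.

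Open sites were spread differently over the loci. Of the 53 Bach2 regions, 8 lay upstream of the gene, 41 in its body and 4 downstream, and 4 of the upstream ones were called in all 6 libraries. Of the 90 Foxp1 regions, 89 lay in the gene body or over its start, 1 lay 21081 bp upstream and 0 within 50 kb downstream.

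**Figure D2:**
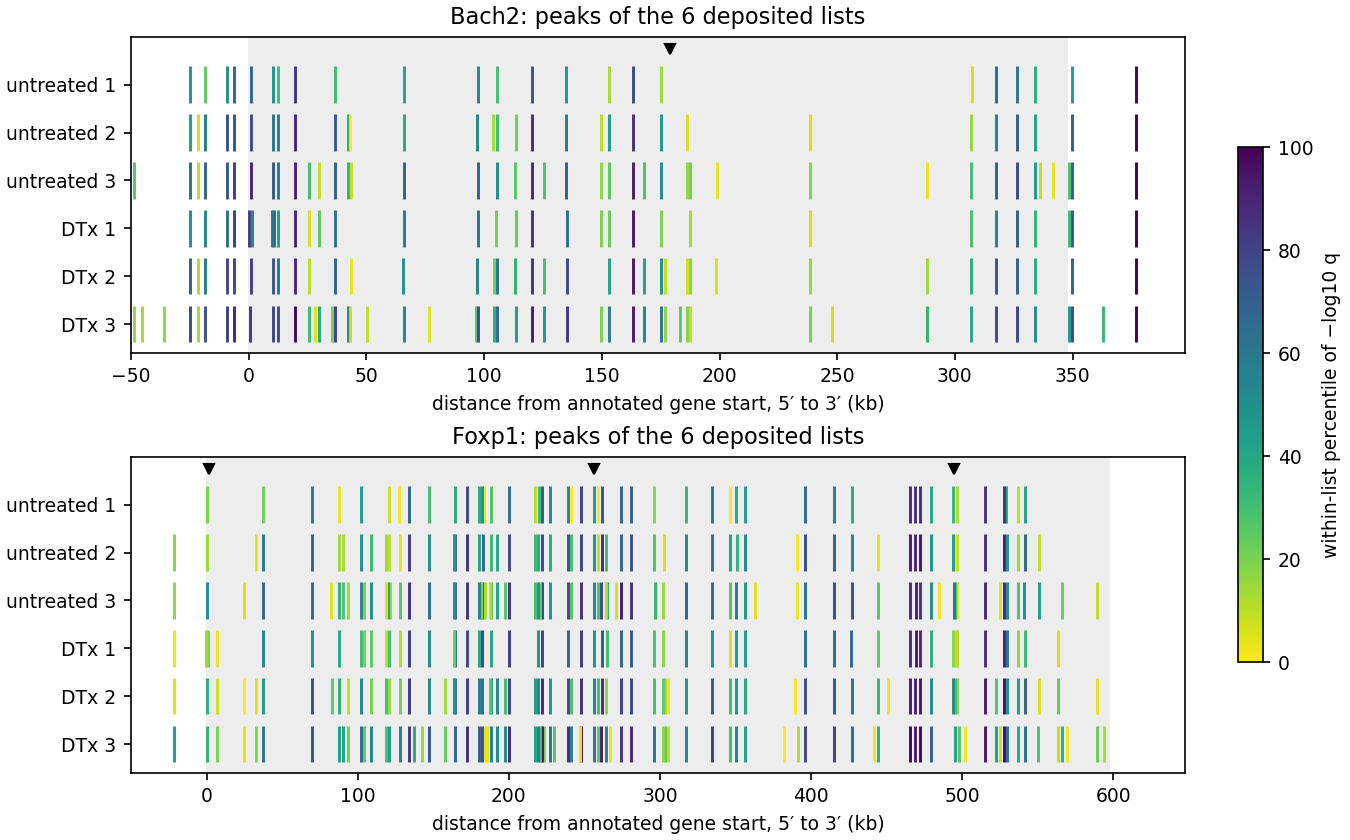
Every peak of the 6 deposited lists at Bach2 (top) and Foxp1 (bottom) as 1 tick at its midpoint, by distance in kb from the annotated gene start (horizontal axis) and by library (rows), coloured by the percentile of its −log10 q within its list. Grey marks the gene body and black triangles the start sites of RefSeq's promoters; Bach2 shows few and weak ticks from 175 to 307 kb.

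Along Bach2 the sites formed 2 groups with an almost empty stretch between them. Each gene was cut into 10 equal segments, numbered from its start. In the equal-length lists segment 1 of Bach2 held 4 peaks in 5 libraries and 7 in DTx replicate 1, which alone called 2 wide regions there as 2 peaks each. Segment 4 held 3 to 5. Segments 7 and 8 held 0 peaks in all 6 libraries, and segment 10 held 3 in each. Segment 5, singled out from all segments after its values were seen, held 2, 2 and 1 peaks in the untreated and 3 in each DTx replicate. The groups did not overlap there, a difference that was not tested. In the deposited lists they did overlap, at 2, 3 and 4 against 3, 3 and 4. How many segments of all genes separate in the equal-length lists was not counted, so how usual this is stays unknown. From 175 to 307 kb after the gene start (chromosome 4, 32413810 to 32544933, 131 kb) no region was called in all 6 libraries of deposited peaks. The 9 regions there were called in at most 5 libraries and reached at most the 35.3th percentile of −log10 q in a list. The next longest such gap in Bach2 was 30.1 kb, and the median was 10.3 kb.

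Beyond that stretch stood a second group close to the 3′ end of Bach2. Its regions at 307, 317, 327 and 334 kb were called in 6 of 6 libraries, as was one just past the gene, at 349 to 350 kb. The one at 327 kb (32564382 to 32565520, 1139 bp) lies inside Bach2os, a lncRNA gene within Bach2. In the equal-length lists its −log10 q had percentiles of 60.7, 65.8 and 66.9 in the untreated and 63.3, 54.4 and 65.2 in the DTx replicates, and the groups overlap.

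Along Foxp1 the sites were more even, with the most in segments 4 and 5. These held 6 to 10 and 6 to 9 peaks per library in the equal-length lists, against 2 in each library in segment 7 and 1 to 2 in segments 1 and 10. The longest gap between regions called in all 6 libraries was 38.8 kb, from 357 to 396 kb after the gene start, and the median gap of 10.9 kb was close to that of Bach2.

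**Figure D3:**
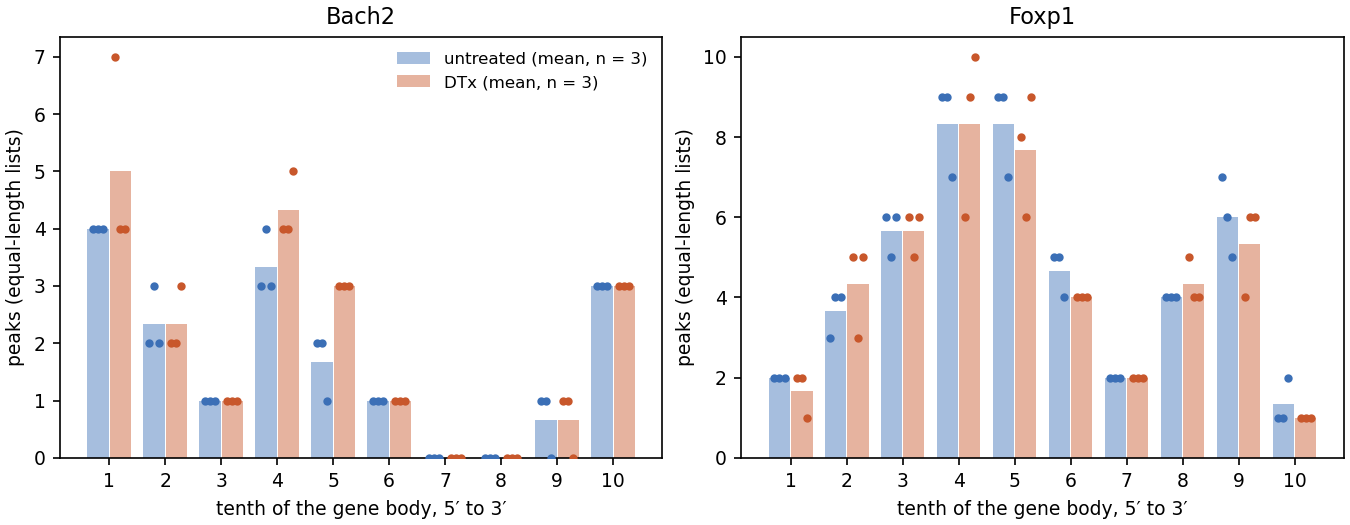
Number of peaks of the equal-length lists (vertical axis) in each of 10 equal segments of the gene body from the gene start to its end (horizontal axis); bars are group means (n = 3) and points the libraries. Bach2 has 0 peaks in segments 7 and 8 in all 6 libraries, and Foxp1 has the most in segments 4 and 5.

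In the equal-length lists the share of peaks in segments 1 to 5 did not separate the groups. At Bach2 it was 70.6%, 73.7% and 73.3% in the untreated and 77.3%, 73.7% and 80.0% in the DTx replicates (exact two-sided permutation p = 0.2; 3 against 3 cannot go below 0.1). At Foxp1 it was 60.4%, 61.7% and 60.5% against 62.8%, 59.5% and 64.6% (exact two-sided permutation p = 0.4). In the deposited lists the Foxp1 share was lower in all 3 DTx libraries, 57.6 ± 0.88% against 60.5 ± 1.26% (SD, n = 3; exact two-sided permutation p = 0.1). That direction was the opposite of the one in the equal-length lists. In the deposited lists, whose lengths differ, all 3 DTx shares lay below all 3 untreated ones. How many of all genes separate in this way was not counted, so how usual this is stays unknown.

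The strength of a region is given as the percentile of its −log10 q among all peaks of the same list, a value of the authors' peak caller that ranks peaks within a list. In the broad layout the score of a peak is an average over its width, so wide regions can rank lower there. Lists of unequal length set no order between groups, so values given library by library are from the equal-length lists unless said otherwise, and the lowest value over the 6 libraries is from the deposited lists. Of the Bach2 regions 23 (43.4%) and of the Foxp1 regions 42 (46.7%) were called in all 6 libraries, beside 44.1% of all regions. The shared sites did not rank high. The median of the lowest percentile over the 6 libraries was 45.6 for those of Bach2 and 40.3 for those of Foxp1, beside 53.2 for all 30954 such regions. Their median widths, 876 and 992.5 bp, lay to either side of the 890 bp of all.

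The strongest region within 50 kb of Bach2 belonged to a neighbour. It lay over the nearer end of Casp8ap2, a gene tied to apoptosis and histone gene expression (32614901 to 32615684), at or above the 99.1th percentile in every list. Ranked by the lowest percentile over the 6 libraries, the strongest within Bach2 lay 19.8 kb after its start (32257747 to 32258622, 876 bp). It stood at the 83.7th, 86.6th and 84.3th percentile in untreated replicates 1, 2 and 3 and at the 86.7th, 82.5th and 96.3th in the DTx replicates, so the groups overlap. Next came a region 163 kb after the start (32401225 to 32402056, 832 bp), at the 78.6th percentile or above. By the median over the 6 deposited lists it ranked above the region at 19.8 kb, at 91.5 against 88.8. Its values by library are given further on.

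A further strong Bach2 region lay 120 kb after the start (32358284 to 32359514, 1231 bp), at the 73.5th percentile or above. Another lay 6096 bp before the gene (32231662 to 32232317, 656 bp), at the 67.4th or above. The region over the gene start (32238184 to 32240214, 2031 bp) was the widest of the locus and stood at 66.9, 73.6 and 82.8 against 77.5, 71.6 and 72.6, overlapping between groups. The other 2 of the 3 widest lay 10.3 kb (1672 bp) and 97.1 kb (1556 bp) after the start and were called in all 6 libraries as well.

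At Foxp1 the strongest regions gathered in the 3′ part of the gene. Of the 6 that ranked highest, 5 lay between 465 and 528 kb after the gene start, on both sides of promoter 3. Those at 465 kb (99056884 to 99057782), 469 kb (99052995 to 99054265) and 472 kb (99050395 to 99050980) stood at the 84.3th percentile or above in every library. The first of them stood at 87.3, 91.03 and 79.6 in the untreated and 83.1, 89.04 and 96.7 in the DTx replicates, with no separation of the groups. The other 2 lay 515 kb (99007455 to 99008224) and 528 kb (98994740 to 98995397) after the start, at the 84.8th and the 85.8th percentile or above. The sixth lay at 248 kb (99274301 to 99275576), near promoter 2, at the 79.4th or above.

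The 3 regions at the promoters of Foxp1 ranked far lower than these. The region over the gene start (99521175 to 99523481) stood at 19.2, 0.80 and 23.1 in the untreated and at 1.61 and 2.40 in DTx replicates 1 and 2 and was not in the equal-length list of DTx replicate 3. The groups overlap there, and also at promoter 2, at 44.3, 41.3 and 32.2 against 35.8, 33.4 and 38.1. The region at promoter 3 stood at 33.4, 35.5 and 36.96 in the untreated and at 26.5 and 3.80 in DTx replicates 2 and 3, and it was not in the list of DTx replicate 1. There all untreated values lay above the DTx ones, a difference that was singled out after its values were seen and was not tested. How many of all regions do the same was not counted. The deposited values at promoter 3 overlap, at 33.4, 44.2 and 59.0 in the untreated and 17.2, 52.0 and 41.8 in the DTx replicates. In DTx replicate 3, of broad layout, the region was 1 peak of 3080 bp. In the deposited lists of narrow layout, whose score is not averaged over the width, the region over the gene start stood at 49.98 and 19.02.

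In both genes the best region away from the gene ends outranked the best one at an end, but how many did so differed. By the lowest percentile over the libraries, 36 of 41 inner Foxp1 regions called in all 6 libraries ranked above the best at a gene end, and only 3 of 16 did at Bach2. An inner region ranked first in 156 (52.3%) of the 298 long genes that had both kinds, so that order is common among long genes. The median over these genes was 66.3 for the best region at a gene end, beside 66.9 for Bach2 and 14.2 for Foxp1. Foxp1 was not alone in this. Among other long genes with many peaks, Lpp had 22 of 24 inner regions above its best gene end, at 12.6. Akap13 had 0 of 22, with its best gene end at 99.3.

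**Figure D4:**
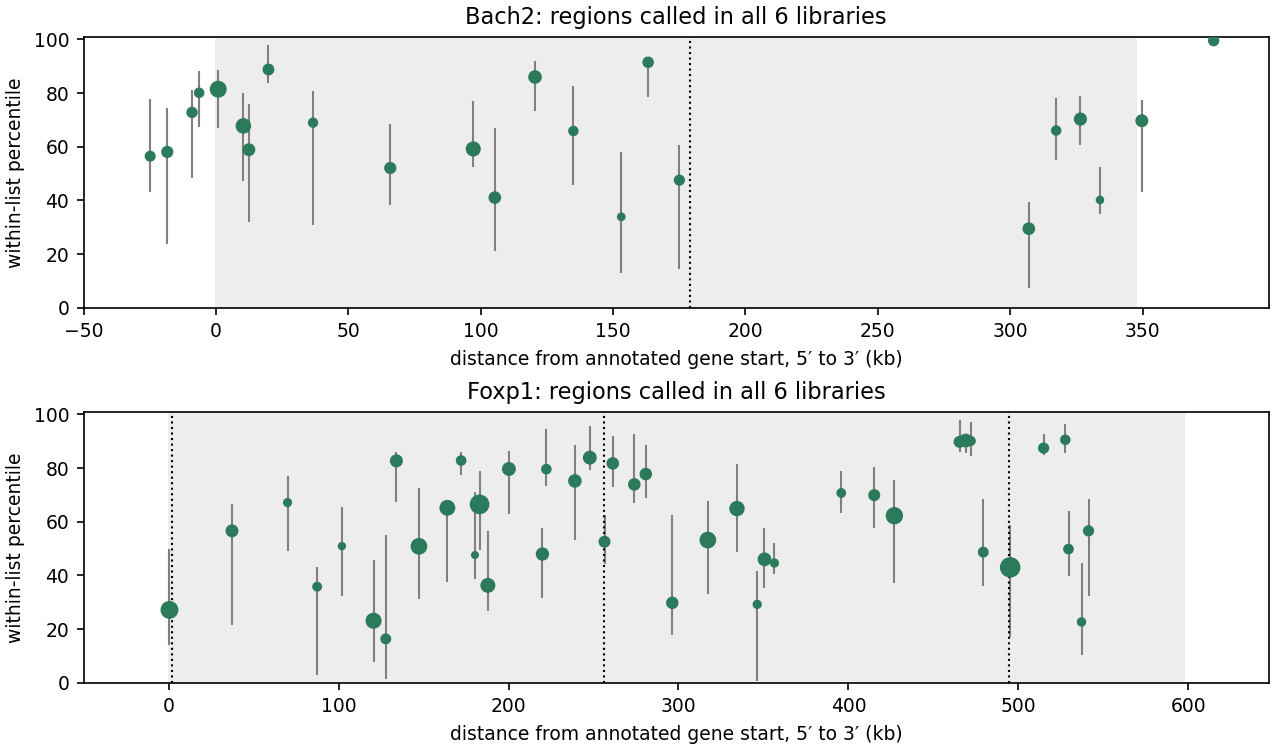
Percentile of −log10 q within the list (vertical axis) for each region called in all 6 libraries, by distance in kb from the gene start (horizontal axis); points are medians over libraries with area in proportion to width, lines span the lowest to the highest library, grey is the gene body and dotted lines are RefSeq's promoter start sites. At Foxp1 the wide region at the gene start lies low, between 14.2 and 49.98, and the cluster at 465 to 472 kb lies at 84.3 or above.

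Between untreated and DTx mice the difference in the number of open sites passed no test at either gene. With 3 libraries a group that does not show that the numbers are alike. Bach2 with its flanks had 23, 25 and 21 peaks in untreated and 29, 25 and 27 in DTx replicates 1, 2 and 3 of the equal-length lists. The means were 23.0 ± 2.0 and 27.0 ± 2.0 (SD, n = 3; exact two-sided permutation p = 0.2), and the groups touch at 25. Neither gene had all 3 DTx counts above all 3 untreated ones, or below them, which 1.41% and 0.859% of gene neighbourhoods had. DTx had 2 more peaks in the broad-layout libraries (2 against 2) and 8 more in the narrow pair (1 against 1). Of the 29 peaks in DTx replicate 1, 2 came from wide regions that this library alone called as 2 peaks, at the gene start and 10.3 kb after it. Counted as regions, a count added after the data were seen, the values were 23, 25 and 21 against 27, 25 and 27 (exact two-sided permutation p = 0.2). With 100 kb of flank the groups no longer overlapped, at 28, 30 and 26 against 34, 31 and 33 (exact two-sided permutation p = 0.1, the smallest possible). The first DTx value still holds the 2 extra peaks of split regions. How many gene neighbourhoods separate at that width was not counted, so how usual this is stays unknown.

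Foxp1 had 48, 48 and 43 peaks in the untreated and 43, 42 and 49 in the DTx replicates. The means were 46.3 ± 2.89 and 44.7 ± 3.79 (SD, n = 3; exact two-sided permutation p = 0.9), and the groups overlap widely. DTx had 2.5 fewer in the broad layout and 0 more or fewer in the narrow pair.

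**Figure D5:**
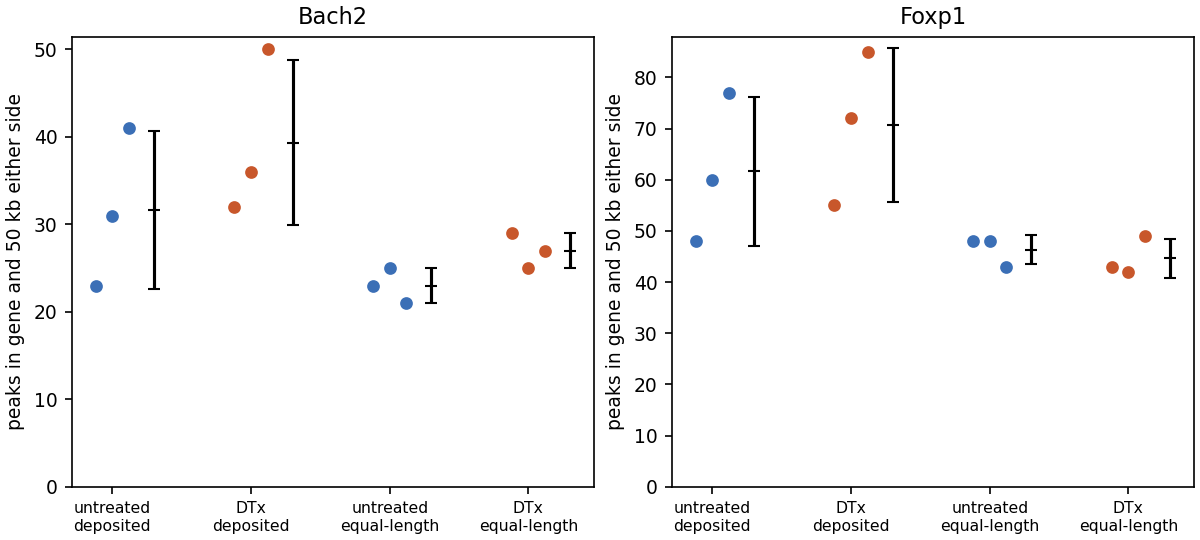
Peaks in the gene and 50 kb on either side (vertical axis, from 0) at Bach2 and Foxp1 in the deposited and the equal-length lists; points are libraries and bars the group mean with its SD (n = 3). The deposited counts range from 23 to 50 at Bach2 and from 48 to 85 at Foxp1, and the equal-length counts from 21 to 29 and from 42 to 49.

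In the deposited lists the counts at both genes were lowest in the shortest list and highest in the longest. Bach2 had 23, 31 and 41 peaks in the untreated and 32, 36 and 50 in the DTx replicates, and Foxp1 had 48, 60 and 77 against 55, 72 and 85 (exact two-sided permutation p = 0.4 and 0.5). DTx minus untreated, the difference was 16 peaks at Bach2 and 24.5 at Foxp1 in the broad layout, and -9 and -22 in the narrow pair, the opposite direction at both genes.

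The bases under peaks overlapped between the groups at both genes. In the equal-length lists they came to 14701, 18648 and 18806 bp at Bach2 in the untreated and 17041, 20003 and 20201 bp in the DTx replicates (exact two-sided permutation p = 0.5). That is 3.88 ± 0.52% of the Bach2 window against 4.26 ± 0.40% (SD, n = 3). At Foxp1 they came to 29826, 32057 and 34926 bp against 23793, 31991 and 41764 bp (exact two-sided permutation p = 1), 4.63 ± 0.37% against 4.66 ± 1.29% (SD, n = 3). The DTx libraries held both the lowest and the highest Foxp1 value. The difference at Foxp1 was 246 bp more in DTx, but -975.5 bp without untreated replicate 1 and -4378 bp without DTx replicate 3. In the broad and the narrow layout it was 5936 and -11133 bp at Foxp1 and 3427.5 and -1765 bp at Bach2.

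Fitted over all 12568 gene neighbourhoods with a mean of at least 3 peaks, limma gave Bach2 a log2 fold of 0.23 ± 0.09 (SE), DTx against untreated, at an adjusted p of 0.848 (unadjusted 0.0548). Foxp1 had -0.05 ± 0.08 (SE) at limma's adjusted p of 0.976. Folds are on the log2(peaks + 0.5) scale, and the median over all genes was 0.01. At an adjusted p under 0.05 limma called 60 neighbourhoods (0.477%) with more and 28 (0.223%) with fewer peaks in DTx. In 87 of these 88 genes the replicates of a group all had 1 and the same number of peaks. With a floor on the variance, limma called 0, with 0 at an unadjusted p under 0.05 as well, but with that floor it also missed the changed genes of simulated data. These calls are given only as the background.

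The 4 lists of related genes held no call in either direction. Of 28 B cell transcription factor genes, all tested, limma called 0 as having more and 0 as having fewer peaks in DTx, with 2 at an unadjusted p under 0.05, Spi1 and Bcl11a, named after their values were seen, beside 394 of all 12568. Spi1, the gene of the factor PU.1, had 6, 7 and 7 peaks around it in the untreated and 5 in each DTx replicate, and Bcl11a had 17, 15 and 15 against 13 in each. Their log2 folds were -0.38 ± 0.07 and -0.26 ± 0.06 (SE), at limma's adjusted p of 0.368 and 0.612. The median log2 fold of the list was -0.01, beside 0.01 for all genes. Most peaks in the equal-length lists stood around Ebf1 (mean 26.8) and Ets1 (24), factors of early B cells and of lymphocytes at large. The fewest stood around Bcl6 (5.0), the germinal centre repressor, and around Spi1 and Pou2af1 (5.83 each). Ets1 had 13.6 peaks per 100 kb of gene body and Ebf1 5.47, beside the 5.37 of Bach2 and 7.56 of Foxp1.

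The relatives and partners of BACH2 (Bach1, the small MAF genes Maff, Mafg and Mafk, and Nfe2l1 and Nfe2l2) had 0 of 6 called in either direction, and 0 at an unadjusted p under 0.05 by limma. Mafg and Bach1 had the most peaks around them, at 9.5 and 8.0, and Mafk and Maff the fewest, at 5.5 and 6.5. In the FOXP family, Foxp4 had 9.0 and Foxp3 3.0 with 0 of 2 called in either direction and 0 at an unadjusted limma p under 0.05. Foxp2, at 541 kb nearly as long as Foxp1, fell below the minimum. In the equal-length lists it had 4, 1 and 0 peaks in the untreated and 0 in each DTx replicate. In the deposited lists 3 untreated and 3 DTx libraries had a peak within 1 kb of an end of Foxp2. Genes tied to BACH2 or FOXP1 in B cells had 0 of 9 tested called in either direction, and 0 at an unadjusted limma p under 0.05. They ran from Klf2 (12.8), a factor of quiescent lymphocytes, and Bcl2l1 (12), a survival gene, down to Hmox1 (5.5), a haem-degrading enzyme gene, and Cdkn2a (2.0, below the minimum). Prdm1, the best known target of BACH2 and named after its values were seen, had 8, 7 and 8 peaks around it in the untreated and 6, 8 and 8 in the DTx replicates.

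By number of peaks over the 6 equal-length lists, flanks included, the long genes most like Bach2 were Arid1b, Trio and Sgms1, with summed absolute differences of 12, 15 and 17 peaks. Foxp1 had no close match. Gse1 differed from it by 76 peaks in all, Lpp by 95 and Akap13 by 98.

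Few regions of either gene were group-only, meaning called in all 3 libraries of 1 group and in 0 of the other. Called in DTx libraries alone, in any number, were 11 Bach2 and 21 Foxp1 regions, beside 12554 of all 70174. In untreated libraries alone it was 3 and 5, beside 3802 of all. A region in 3 of 3 DTx and 0 of 3 untreated libraries occurred 0 times among the 53 Bach2 regions and 2 times among the 90 of Foxp1, beside 0.705% of all regions. The reverse occurred 0 times at both genes, beside 0.0242% of all. The 2 Foxp1 regions were weak. One lay 7.03 kb after the gene start (99515524 to 99515902), with percentiles in the deposited lists of 2.004, 7.27 and 19.8 in DTx replicates 1, 2 and 3, and the other 563 kb after it (98959383 to 98959665), at 6.34, 24.2 and 9.45. In the equal-length lists neither was present, and both genes had 0 group-only regions in either direction, beside 0.367% (DTx) and 0.579% (untreated) of all regions there. Without DTx replicate 1 the DTx-only count was 5 at Foxp1 and 1 at Bach2, beside 3.89% of all regions. Without untreated replicate 3 it was 2 at Bach2 and 2 at Foxp1, beside 3.37%. Without untreated replicate 1, Foxp1 had 1 untreated-only region, beside 0.221%.

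A gap of at least 2 libraries between groups, DTx higher, held for 3 of the 53 Bach2 and 5 of the 90 Foxp1 deposited regions, beside 7.87% of all regions. Besides the 2 above, these were at Bach2 the regions 25.6, 177 and 187 kb after the start and at Foxp1 those at 158, 305 and 523 kb. None of these 8 reached above the 44.1th percentile. Untreated was higher by that much at 0 Bach2 and 1 Foxp1 region, 391 kb after the start and at or below the 2.03th percentile, beside 0.514% of all. In the equal-length lists the DTx count was 3 of 30 at Bach2 and 0 of 56 at Foxp1, beside 3.75% of all, and the untreated count 0 and 1, beside 3.84%. The 3 at Bach2, named after their values were seen, lay at 113, 168 and 348 kb. The last (32586713 to 32587007, 295 bp), 604 bp beyond the 3′ end of the gene, is also the only region within 1 kb of that end.

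Within-list percentiles in the equal-length lists were compared where all 6 had the region. All 3 DTx values lay above all 3 untreated ones in 2 of 21 Bach2 and 1 of 34 Foxp1 regions, beside 3.27% of all 26152 such regions. The reverse held in 0 and 0, beside 5.72%. The regions were those at 135 and 163 kb of Bach2 and at 222 kb of Foxp1, named after their values were seen. At 135 kb (32373072 to 32373714) the percentiles were 45.6, 52.7 and 53.2 in the untreated and 54.1, 65.4 and 71.6 in the DTx replicates. At 163 kb they were 78.6, 84.5 and 86.2 against 91.1, 89.2 and 86.7.

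One library accounted for most regions that no other library called. Of 13 Bach2 regions called in 1 library only, 9 (69.2%) were in DTx replicate 3, the longest list, 3 in untreated replicate 3 and 1 in DTx replicate 2. Of 20 at Foxp1, 14 (70.0%) were in DTx replicate 3, 4 in untreated replicate 3 and 2 in DTx replicate 2. Over all 12785 such regions, 42.5% were in DTx replicate 3. Their median widths at Bach2 and Foxp1 were 206 and 186.5 bp. Without DTx replicate 3 there would be 44 Bach2 and 76 Foxp1 regions.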

How the data were processed

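ATAC-seq of sorted splenic immature B cells was analysed from 6 peak lists, 1 per library. The submitters' processing notes name Trim Galore 0.4.3, Bowtie2 2.3.2, MACS2 2.1.1 and the build mm10. How read ends were shifted, how duplicates were handled and how many reads there were was not given in the sources used here, so depth is unknown and no interval that needs it is given. Each deposited list gives the pileup signal (coverage) and the fold enrichment as a ratio, per the file headers, and the −log10 p and −log10 q of each peak. Their own headers are unreadable (spreadsheet errors), so these −log10 columns were told apart by order and values. Pileup and ratio were not used here.

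Each list lost its 2 mitochondrial peaks, and peaks of X, Y and the 19 autosomes stayed in. Regions are merged overlapping peaks, and a library has a region at 1 bp of overlap. A peak counts for a gene by its midpoint, in the gene or within 50 kb. Coordinates are 1-based, genes are the 21883 protein-coding symbols of GRCm38.p6, and strand comes from RefSeq's promoter table, whose sequences are shown. Values per library were compared by exact permutation over 20 relabellings, whose smallest p is 0.1. Gene neighbourhoods were fitted with limma 3.58.1 (trend, robust; R 4.3.3) on log2(peaks + 0.5), Benjamini-Hochberg adjusted over all genes. Tested on simulated data, this fit also called unchanged genes that had no spread within groups. Python 3.11.15, NumPy 2.4.6 and pandas 2.3.3 did the rest. The genes, lists and tests were chosen with earlier results of these data known.

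Named regions are those within 1 kb of a gene end, the 6 with the highest lowest percentile, the 3 widest and those with a gap of 2 or more libraries between groups. From each list the 2 genes with the most and the 2 with the fewest peaks are named, and the 3 most alike long genes. Alternatives were the deposited lists, a −log10 q of at least 5, other windows, pseudocounts and filters, merging within 500 bp, 50% overlap, the layout of the list, a replicate block, a variance floor and leaving out each library.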

Additional observations from a re-analysis of the deposited data

How the results depend on the processing

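Over 15 results and 155 alternatives, 113 stayed the same, by direction and side of the threshold. For counts this meant within 1.5 times, and for values with no test within 1 SD. The exact tests of peak numbers and covered bases cannot go below 0.1, so those results could change in direction alone. With 5 libraries the density difference cannot pass 0.05. The 113 is therefore no measure of how firm the results are. Depth cannot be judged without read totals, and weak sites rest on it most. Foxp1 peak number, DTx minus untreated, reversed from -1.67 to 9 in the deposited lists and to 6.67 with a −log10 q of at least 5, and its limma log2 fold from -0.05 to 0.20 in the deposited lists. Foxp1 DTx-only regions fell to 1 with a −log10 q of at least 5, to 1 with 50% overlap and to 0 in equal-length lists. The density of Bach2 and Foxp1 was 7.91 and 10.9 peaks per 100 kb in the deposited lists. Bach2 minus Foxp1 density was -0.94 with flanks. limma's genes with more peaks in DTx numbered 0 in the deposited lists, 109 with any gene of at least 1 peak, 0 with the variance floor and 10 in gene bodies, and those with fewer 0, 53, 0 and 11, and 44 with the layout as a factor.

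Leaving out each library in turn gave -2.46 to -2.001 for the density difference (exact permutation p = 0.0625 each, the smallest 5 libraries allow), 3 to 5 for Bach2 peaks, -3.83 to -0.33 for Foxp1 peaks, 354.67 to 2717 bp for Bach2 bases and -4378 to 4608 bp for Foxp1 bases. It gave 0 to 2 Bach2 and 2 to 5 Foxp1 DTx-only regions, 0 and 0 to 1 untreated-only regions, while the DTx-only share of all regions ranged from 0.909% to 3.89%, 105 to 189 limma genes with more and 53 to 120 with fewer peaks, and log2 folds of 0.17 to 0.29 for Bach2 and -0.12 to -0.01 for Foxp1.

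Same-numbered libraries correlated in their deviations from the group means at 0.44, 0.05 and 0.33, so not every pair passed 0.1 and the numbers were not taken as pairs. With a replicate block the differences were 4 and -1.67 peaks and 1697 and 246 bp at Bach2 and Foxp1, limma's log2 folds 0.23 and -0.05 (adjusted p = 0.655 and 0.956) and its counts 58 and 29.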
